A study of Mus musculus with 16 samples.

Results

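The dystrophin glycoprotein complex was followed here through 8 genes, namely Dmd, Utrn, Dag1, Sgca, Sgcb, Sgcd, Dtna and Sspn. Every probe set whose platform symbol is one of these genes was taken, which gave 20 probe sets among the 45141 of the array. Dmd, Dag1 and Sgcb had 3 probe sets each, Dtna had 6, Sspn had 2, and Utrn, Sgca and Sgcd had 1 each. Several probe sets of the same gene were read from the same RNA extracts and are not replicates of each other. They may match different transcripts of the gene.

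The study profiled RNA of ventricular heart muscle cells from mice with the gene for GPER knocked out or intact. GPER is a membrane receptor for estrogen that acts through G proteins. The knockout mice are called GPER KO below. The labels call the other mice wild type, and they are called intact below. The 16 arrays, 1 per mouse, fell into 4 groups. Female intact were animals 418, 421, 422 and 425, and female GPER KO were 417, 419, 426 and 427. Male intact were 430, 433, 452 and 453, and male GPER KO were 431, 432, 444 and 451. The comparison is between GPER KO and intact mice within each sex. The labels give an age of 15 weeks for every mouse, and the methods of the study give a somewhat older age. The study describes the deletion as restricted to cardiomyocytes. The promoter that drives its recombinase is not given in the sources used here, nor is whether the intact mice carried that recombinase. An effect of the recombinase was therefore not tested apart from loss of GPER. The cells were enriched by collagenase perfusion and straining rather than sorted.

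The complex spans the sarcolemma of striated muscle. Dystrophin binds cortical actin inside the cell and the dystroglycan core at the membrane, dystroglycan binds laminin outside, and sarcoglycans, sarcospan and dystrobrevin complete the assembly, which carries contractile force between cytoskeleton and matrix. Defects of its parts are known causes of muscular dystrophy and dilated cardiomyopathy.

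Array medians lay between 3.47 and 3.51 on the log2 scale and correlations between arrays between 0.982 and 0.997. These ranges do not show whether a single array stood apart. The sex labels held on all 16 arrays, with Eif2s3y, a gene of the Y chromosome, at 2.24 to 2.60 in females and 6.04 to 7.17 in males. The probe set for Gper1 gave a dim signal of 2.64 to 3.11 on all arrays and was not called in any genotype comparison, and since its place relative to the deleted part is unknown it does not check the genotype labels. Cardiomyocyte markers had a mean log2 signal of 12.3 to 12.4 on every array, and none of their 21 probe sets was called in any genotype comparison. Which arrays shared a strip or a scan is not given in the sources used here, so that batch could not be examined.

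Signals are log2 values per probe set, made by RMA, which corrects background, equalises the arrays and summarises the probes of each set. A probe set is called when its adjusted p, from limma's moderated test with Benjamini-Hochberg adjustment over all probe sets, was under 0.05, and differences are GPER KO minus intact on the log2 scale unless stated. In male GPER KO cardiomyocytes the RNA of dystrophin (Dmd) and of β-sarcoglycan (Sgcb) was lower than in intact ones, at 2 of 3 and 1 of 3 probe sets, and no member was called in females. Over the 20 probe sets, the male comparison called 3, all lower in GPER KO, where 0.29% of all probe sets were called and 0.0598% were called lower, and 7 members had an unadjusted p under 0.05 against 8.49% of all. The female comparison called 0 members, where 0.122% of all probe sets were called and 0.0576% called lower, and 0 members had an unadjusted p under 0.05 against 10.8% of all probe sets. Averaged over the sexes 3 members were called, all lower, where 0.817% of all probe sets were called and 0.33% called lower, and 4 members had an unadjusted p under 0.05 against 9.14% of all. Male intact minus female intact called 0 members, where 0.246% of all were called, and 4 had an unadjusted p under 0.05 against 15.8% of all. For the difference between the sexes 0 members and 0.0% of all were called, with 7 members at an unadjusted p under 0.05 against 10.1% of all. The 3 calls came from 2 genes, and the other 6 genes had none. The members were chosen with earlier results of these data known, so these counts are a description only. With each array left out in turn the male count ran from 1 to 3 and the averaged count from 0 to 3, and the arrays behind this are given with each gene.

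Most members lay near 0. In males 14 of 20 probe sets were below intact with a median of -0.04, beside a median of 0.005 over all probe sets, and in females 12 of 20 with a median of -0.03, beside -0.01 over all. The intact and GPER KO arrays did not overlap for 4 members in males (Dmd 1448665, Dmd 1417307, Sgcb 1436678 and Sgcb 1419668), where 5.29% of all probe sets did not overlap, and for 1 in females (Sgca 1422654), where the share was 4.83%. The female and male comparisons use separate mice, and the averaged comparison uses the arrays of both.

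**Figure D1:**
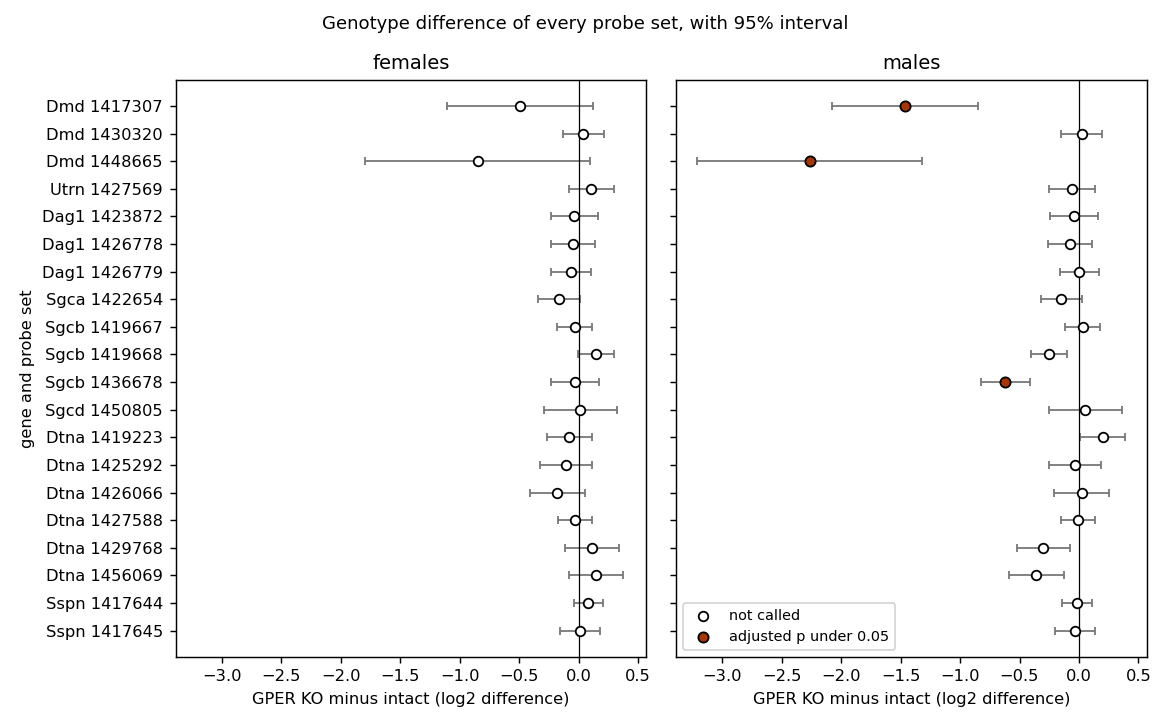
Genotype difference, GPER KO minus intact on the log2 scale (horizontal axis), of the 20 member probe sets (vertical axis) in females and males, with 95% intervals from limma. Filled points passed an adjusted p of 0.05, which holds for Dmd 1448665, Dmd 1417307 and Sgcb 1436678 in males and for no member in females.

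**Figure D2:**
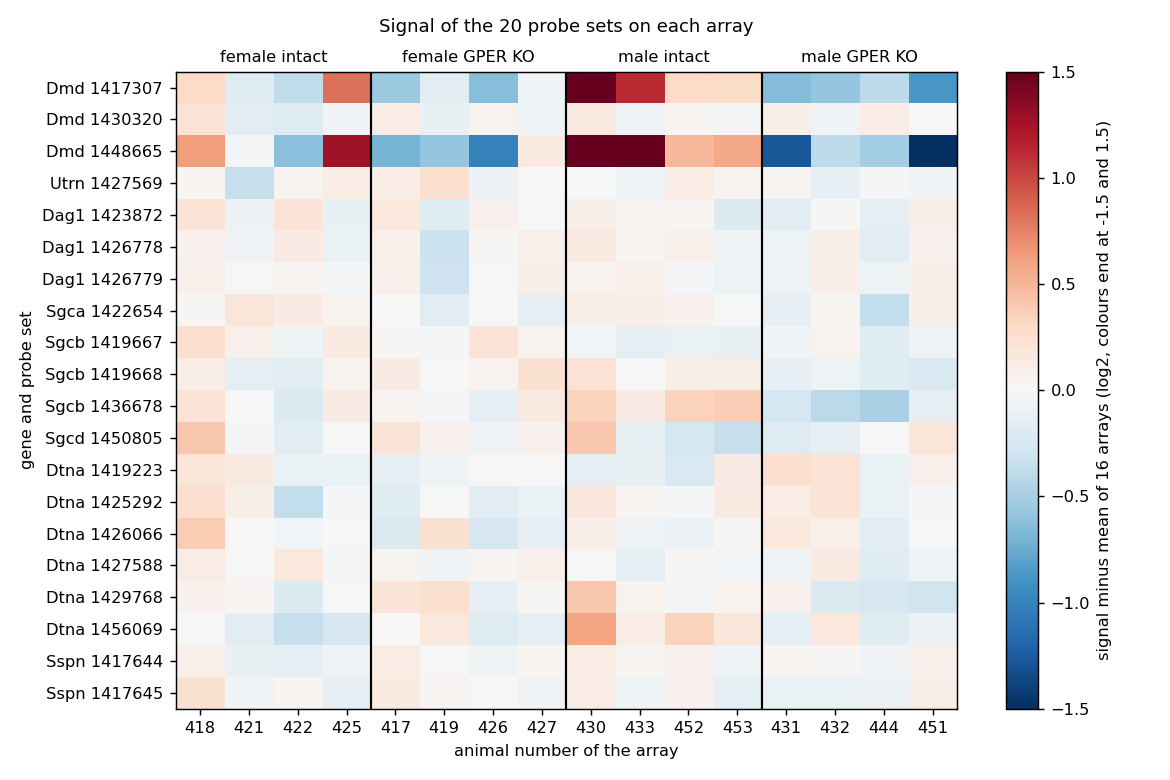
Signal of the 20 member probe sets (vertical axis) on the 16 arrays (horizontal axis, by animal number and group), as log2 signal minus the mean of that probe set over all arrays. Colours end at -1.5 and 1.5. Strong colours lie in the rows of Dmd 1448665 and Dmd 1417307, with male intact arrays above and male GPER KO arrays below the mean.

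Dmd encodes dystrophin, the large protein that ties the actin cytoskeleton to the complex. The gene lies on chromosome X and spans 2.39 Mb in the RefSeq annotation of GRCm38.p6. The 250 bases before each of the 2 Dmd starts in the RefSeq promoter table are shown because 2 of the 3 Dmd probe sets, both listed with the same RefSeq transcript, carried the largest differences among the members. The first window is chrX:82948620-82948869 and the second is chrX:85048045-85048294, both on the plus strand of GRCm38.p6, written from 5′ to 3′. Capitals mark matches, on either strand, to the E-box (CANNTG), the CArG box or the MEF2 site, motifs known from muscle promoters.
Dmd start 1: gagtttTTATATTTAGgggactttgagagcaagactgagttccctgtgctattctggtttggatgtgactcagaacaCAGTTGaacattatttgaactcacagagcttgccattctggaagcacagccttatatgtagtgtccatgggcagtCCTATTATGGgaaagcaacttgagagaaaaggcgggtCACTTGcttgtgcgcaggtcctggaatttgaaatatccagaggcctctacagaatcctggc
Dmd start 2: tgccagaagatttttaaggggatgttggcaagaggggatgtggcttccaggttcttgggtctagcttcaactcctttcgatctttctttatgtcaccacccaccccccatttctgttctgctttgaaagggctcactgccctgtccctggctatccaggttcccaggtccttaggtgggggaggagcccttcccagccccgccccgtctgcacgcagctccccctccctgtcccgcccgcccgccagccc
The first window held 2 E-boxes, at 173 to 168 and 61 to 56 bases before the start, a CArG box at 98 to 89 bases and an MEF2 site at 244 to 235 bases, and none of the matches overlapped. The second window held none of these letters. Among the 32851 windows of the same length in the table, 66.2% held an E-box, 1.47% a CArG box and 2.92% an MEF2 site. These matches describe sequence only, since the arrays did not measure binding or the start used.

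In males, Dmd RNA was lower in GPER KO cardiomyocytes than in intact ones, and in females the groups overlapped. Probe set 1448665 gave log2 signals of 7.38, 7.18, 5.80 and 5.88 on the male intact arrays, in the order of the animal numbers. On the male GPER KO arrays it gave 4.05, 4.92, 4.79 and 3.43. The lowest male intact array lay 0.87 above the highest male GPER KO array, and animals 430 and 433 lay well above animals 452 and 453 within the intact group. The difference was -2.26 on the log2 scale (SE 0.45, 95% interval -3.21 to -1.32), a 4.80-fold lower signal, with an adjusted p of 0.0442 in limma. The exact two-sided permutation test over the 8 male arrays gave p = 0.0286, which is the smallest value that 70 assignments allow. Any probe set whose groups do not overlap gets this value, so the test adds nothing to the separation.

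Probe set 1417307, also of Dmd, gave 6.46, 5.92, 5.10 and 5.07 on the male intact arrays. On the male GPER KO arrays it gave 4.15, 4.22, 4.40 and 3.92. Again the groups did not overlap, with animals 430 and 433 the highest. The difference was -1.46 (SE 0.29, 95% interval -2.08 to -0.85), a 2.76-fold lower signal, with an adjusted p of 0.0442 in limma.

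In females, probe set 1448665 gave 5.94, 5.30, 4.69 and 6.59 on the intact arrays and 4.62, 4.74, 4.30 and 5.46 on the GPER KO arrays. Animals 421 and 422 of the intact group lay within the GPER KO range and animals 419 and 427 of the GPER KO group within the intact range. The female difference was -0.85 (SE 0.45, 95% interval -1.79 to 0.10, adjusted p = 0.517 in limma), and the exact permutation test over the 8 female arrays gave p = 0.171. Probe set 1417307 gave 5.09, 4.62, 4.42 and 5.62 on the female intact arrays and 4.24, 4.64, 4.16 and 4.73 on the female GPER KO arrays. These groups overlapped as well, with a difference of -0.49 (SE 0.29, 95% interval -1.10 to 0.12) and an adjusted p of 0.570 in limma.

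The third Dmd probe set, 1430320, listed with a different sequence record, showed no such pattern. Its signal was 2.21 to 2.61 over all 16 arrays, below every array median, and the groups overlapped in both sexes. Its difference was 0.02 in males (95% interval -0.15 to 0.20) and 0.04 in females (95% interval -0.14 to 0.22).

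**Figure D3:**
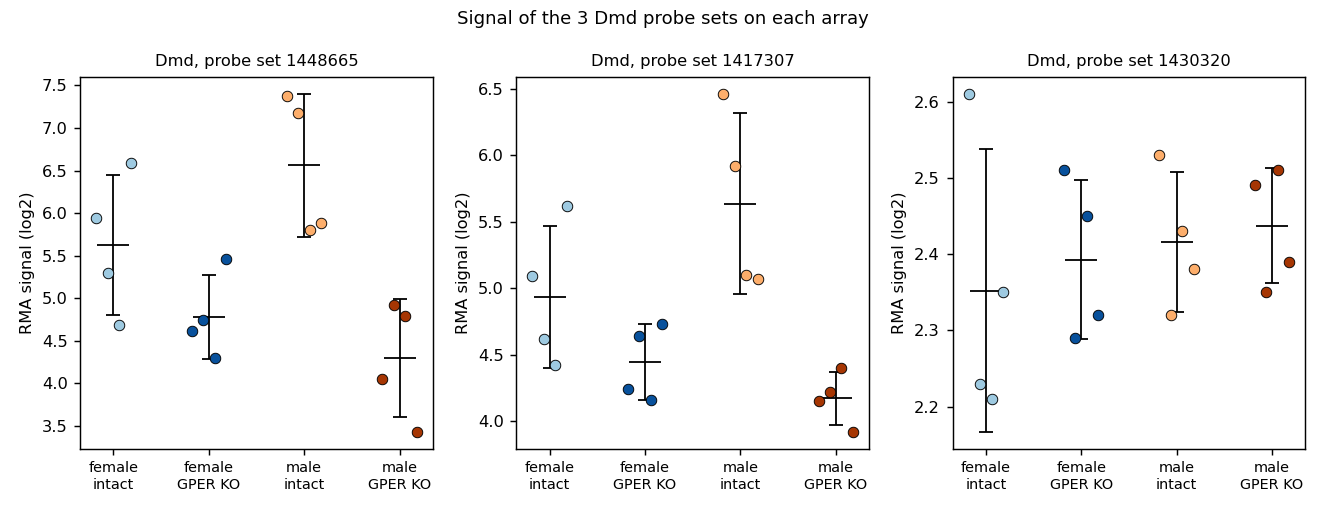
Log2 RMA signal (vertical axis, a separate scale in each panel) of the 3 Dmd probe sets in the 4 groups. Each point is 1 array, the long bar is the group mean and the whiskers are 1 SD (n = 4). For 1448665 and 1417307 all male GPER KO points lie below all male intact points, and for 1430320 every point lies between 2.21 and 2.61.

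For probe set 1448665 the group means ran from 6.56 ± 0.84 (SD, n = 4) in male intact through 5.63 ± 0.82 in female intact and 4.78 ± 0.49 in female GPER KO to 4.30 ± 0.69 in male GPER KO. The arrays of neighbouring groups in this order overlapped. Intact males were 0.93 above intact females (SE 0.45, adjusted p = 0.325 in limma), and the female genotype difference is given above. The difference between the female and male GPER KO groups was not tested.

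The female and male genotype differences of Dmd were compared directly. Male minus female, the difference was -1.42 for 1448665 (SE 0.63, 95% interval -2.75 to -0.08, adjusted p = 0.483 in limma) and -0.97 for 1417307 (SE 0.41, 95% interval -1.84 to -0.11, adjusted p = 0.472 in limma). Over all 45141 probe sets this test called 0, so the genotype difference of Dmd was not shown to differ between the sexes. Averaged over the sexes, Dmd RNA was lower with the knockout, with a difference of -1.56 for 1448665 (SE 0.32, adjusted p = 0.0279 in limma) and of -0.98 for 1417307 (SE 0.20, adjusted p = 0.0325 in limma). Each of these calls was lost in 7 of 16 cases with an array left out, and both were lost without female intact 418, female GPER KO 417, female GPER KO 426, male intact 433 or male GPER KO 431. The call of 1448665 was also lost without female GPER KO 419 or male intact 430 and that of 1417307 without male GPER KO 432 or 451, and the adjusted p over these cases ran from 0.0528 to 0.0789.

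The same 2 Dmd probe sets also varied widely among mice of the same group. The pooled SD within groups was 0.72 for 1448665 and 0.47 for 1417307 but 0.12 for 1430320, beside 0.08 to 0.23 for the 17 probe sets of the other genes and a median of 0.11 over all probe sets. Probe sets 1448665 and 1417307 followed each other across the 16 arrays (Pearson r 0.967, Spearman rho 0.944), also after removal of the group means (Pearson r 0.908). Both rest on the same RNA extracts, and their r with 1430320 was 0.05 and 0.10.

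The male calls for Dmd lay close to the threshold. With each array left out in turn, 1448665 missed it in 13 of 16 cases, with an adjusted p of 0.0503 to 0.160 and a difference of -2.52 to -1.98. It passed without female intact 422, female intact 425 or male intact 453. Probe set 1417307 missed it in 12 of 16 cases, with an adjusted p of 0.0548 to 0.133 and a difference of -1.54 to -1.19, and passed without these arrays or male intact 452. The direction was lower in every case. Both calls were also lost with the male arrays alone (adjusted p = 0.103 for 1448665 and 0.105 for 1417307 in limma) and with a trended robust prior (0.110 and 0.0908), and over all alternatives the adjusted p ran from 0.0239 to 0.160.

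**Figure D4:**
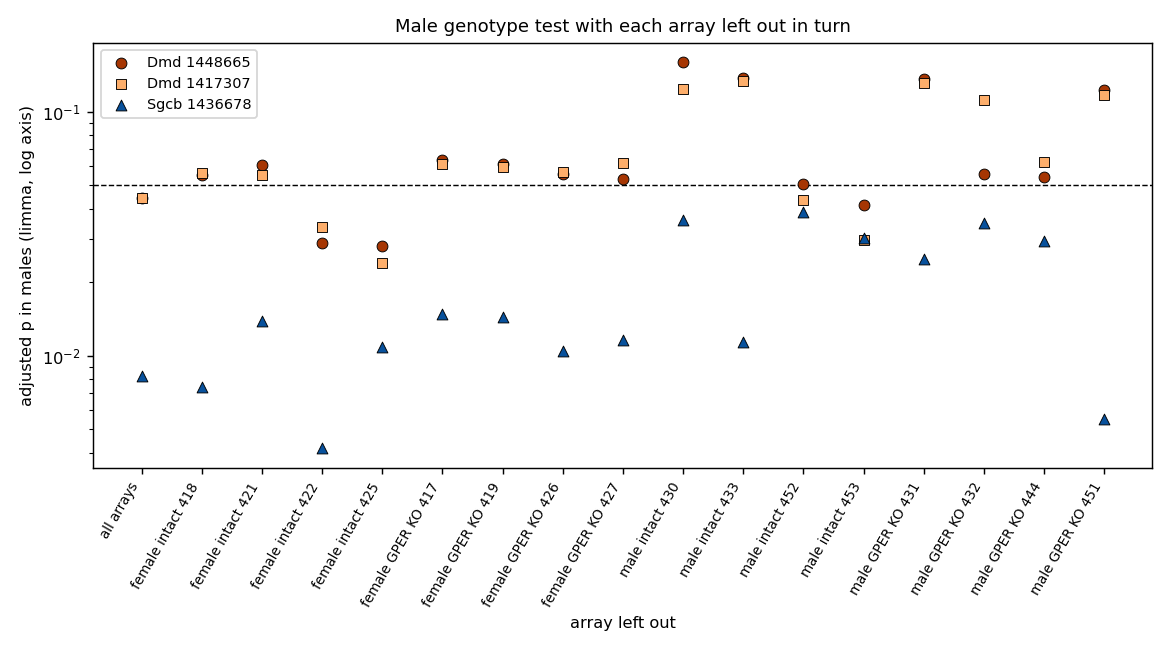
Adjusted p of the male genotype test in limma (vertical log axis) for the 3 called member probe sets, with all arrays and with each of the 16 arrays left out (horizontal axis). The dashed line is the threshold of 0.05. Sgcb 1436678 stays below the line throughout, while Dmd 1448665 and Dmd 1417307 lie above it in 13 and 12 of 16 cases.

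Utrn encodes utrophin, the autosomal relative of dystrophin that can take its place in the complex. Its probe set, 1427569, stayed between 3.31 and 3.89 on the 16 arrays, and the groups overlapped in both sexes. The genotype difference was 0.11 in females (95% interval -0.08 to 0.30, adjusted p = 0.717 in limma) and -0.06 in males (95% interval -0.25 to 0.13, adjusted p = 0.918 in limma).

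Dag1 encodes dystroglycan, the membrane core that is cut into the laminin-binding and the dystrophin-binding subunit. Its 3 probe sets, 1426778, 1426779 and 1423872, had genotype differences between -0.06 and -0.03 in females and between -0.07 and 0.004 in males. The widest 95% intervals ended at -0.26 and 0.17, so that larger differences lay outside them. Probe set 1426779 carries the x_at suffix, by which the platform marks probes that can match other transcripts, and it followed 1426778 across arrays with r 0.892.

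Sgcb encodes β-sarcoglycan, a core subunit of the sarcoglycan subcomplex, and its RNA was lower in male GPER KO cardiomyocytes at 1 of its 3 probe sets. Probe set 1436678 gave 7.60, 7.37, 7.60 and 7.62 on the male intact arrays and 6.99, 6.85, 6.76 and 7.11 on the male GPER KO arrays. The groups did not overlap, with animal 433 the lowest of the intact group. The difference was -0.62 (SE 0.10, 95% interval -0.83 to -0.42), a 1.54-fold lower signal, with an adjusted p of 0.00827 in limma. In females the same probe set gave 7.46, 7.25, 7.03 and 7.37 on the intact arrays and 7.29, 7.22, 7.11 and 7.38 on the GPER KO arrays. The female groups overlapped, with a difference of -0.03 (SE 0.10, 95% interval -0.24 to 0.17, adjusted p = 0.944 in limma).

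Male minus female, the genotype difference of 1436678 was -0.59 (SE 0.14, 95% interval -0.88 to -0.30), which did not pass over the whole array (adjusted p = 0.463 in limma). The male call held with each of the 16 arrays left out, with a difference of -0.68 to -0.56 and an adjusted p of 0.00417 to 0.0387. Averaged over the sexes, the signal fell by 0.33 (SE 0.07, adjusted p = 0.0343 in limma), and that call was lost in 12 of 16 cases with an array left out, with an adjusted p of 0.0523 to 0.0818. It held without female intact 422, female GPER KO 427, male intact 433 or male GPER KO 451. In males Sgcb was not called with 1 probe set per gene, in which 1419668 stood for it, or with its probe sets averaged.

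The other Sgcb probe sets differed from 1436678 in size or direction. Probe set 1419668 gave 8.87, 8.65, 8.74 and 8.74 on the male intact arrays and 8.53, 8.58, 8.47 and 8.42 on the male GPER KO arrays. These groups did not overlap, but the difference of -0.25 (SE 0.07, 95% interval -0.40 to -0.10) missed the threshold with an adjusted p of 0.212 in limma. In females its difference was 0.14 (95% interval -0.01 to 0.30, adjusted p = 0.488 in limma). Probe set 1419667 had a male difference of 0.03 (95% interval -0.11 to 0.18) and a female difference of -0.03 (95% interval -0.18 to 0.11). Across the 16 arrays 1436678 followed 1419668 with r 0.732 and 1419667 with r 0.104. Where each probe set lies along the Sgcb transcripts is not given in the sources used here.

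**Figure D5:**
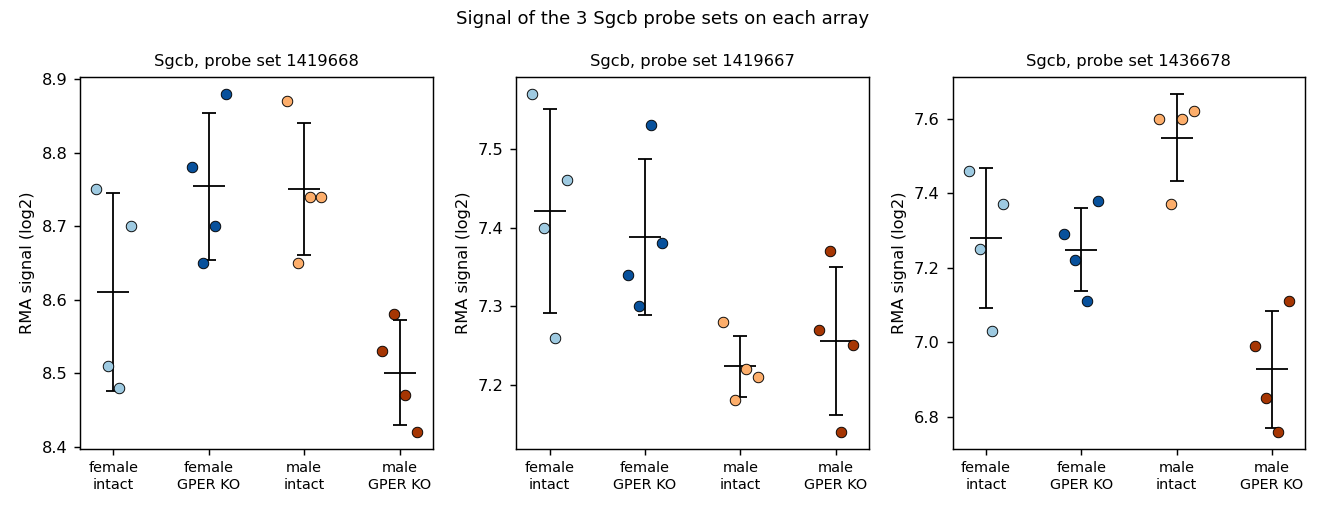
Log2 RMA signal (vertical axis, a separate scale in each panel) of the 3 Sgcb probe sets in the 4 groups. Each point is 1 array, the long bar is the group mean and the whiskers are 1 SD (n = 4). Male GPER KO points lie below all male intact points for 1419668 and 1436678 and overlap them for 1419667.

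Sgca encodes α-sarcoglycan and Sgcd encodes δ-sarcoglycan, further parts of the same subcomplex. Sgca, read by probe set 1422654, was 8.84, 9.01, 8.95 and 8.88 on the female intact arrays and 8.82, 8.67, 8.83 and 8.69 on the female GPER KO arrays. The female groups were separated by 0.007, and those of the males overlapped. The difference was -0.16 in females (SE 0.08, adjusted p = 0.495 in limma), -0.15 in males (SE 0.08, adjusted p = 0.676 in limma) and -0.16 averaged over the sexes (SE 0.06, adjusted p = 0.355 in limma). Sgcd, read by probe set 1450805, differed by 0.01 in females (95% interval -0.29 to 0.32) and by 0.05 in males (95% interval -0.26 to 0.36).

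Dtna encodes α-dystrobrevin, the cytoplasmic partner that binds dystrophin and carries syntrophins, and none of its 6 probe sets was called. In males the differences ran from -0.36 for 1456069 (95% interval -0.59 to -0.13, adjusted p = 0.261 in limma) to 0.20 for 1419223 (95% interval 0.01 to 0.39, adjusted p = 0.561 in limma). Probe set 1429768 had -0.30 (95% interval -0.53 to -0.07, adjusted p = 0.383 in limma), and the other 3 had between -0.03 and 0.02. In females the 6 differences ran from -0.18 to 0.15. The probe sets thus had both signs in each sex, and r between pairs of them over the 16 arrays ran from -0.21 to 0.69.

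Dtna also had the member probe set nearest to a sex difference among intact mice. Probe set 1456069 gave between 2.90 and 3.24 on the female intact arrays and 3.84, 3.36, 3.58 and 3.42 on the male intact arrays. Male minus female, the difference was 0.49 (SE 0.11, 95% interval 0.26 to 0.72, adjusted p = 0.0618 in limma). It passed in 3 alternatives, with an adjusted p of 0.0485 after a second quantile normalization, 0.0487 with a trended robust prior and 0.0409 without female intact 418, over a range of 0.0409 to 0.168. Probe set 1456069 was dim, with a mean rank at the 41.8 percentile of the array. The other Dtna probe sets had both signs, from -0.12 for 1419223 to 0.15 for 1429768, and none was called.

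Sspn encodes sarcospan, the small membrane protein that associates with the sarcoglycans. Its probe sets were steady, with genotype differences of 0.08 (95% interval -0.04 to 0.21) in females and -0.02 (95% interval -0.14 to 0.11) in males for 1417644. For 1417645 the differences were 0.01 (95% interval -0.16 to 0.18) and -0.04 (95% interval -0.20 to 0.13).

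Other genes of the complex and its surroundings were read from 5 lists with 60 measured genes of 73 and 114 probe sets. No probe set of these lists was called in females or in males, while 9 in females and 13 in males had an unadjusted p under 0.05, against 10.8% and 8.49% of all probe sets. Averaged over the sexes 1 was called, where 0.817% of all were called. That was Des, which encodes desmin, the intermediate filament of muscle. Its probe set 1426731 rose by 0.25 with the knockout (SE 0.05, adjusted p = 0.0332 in limma), with 0.26 in females and 0.24 in males. The call was lost in 10 of 16 cases with an array left out (adjusted p of 0.0596 to 0.0826) and after a second quantile normalization (adjusted p = 0.0608), while the alternatives together ran from 0.0205 to 0.0826.

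Among the other core members of the complex, 7 of 10 genes were measured with 14 probe sets, of which 9 were below intact in males (median -0.05) and 10 in females (median -0.03). Those with the smallest p averaged over the sexes were Sntb2, a syntrophin, at -0.14 (adjusted p = 0.467 in limma), Sgce, ε-sarcoglycan, at -0.09 (adjusted p = 0.519 in limma), and Dtnb, β-dystrobrevin, at -0.09 (adjusted p = 0.681 in limma). Among the cytoplasmic partners, 18 of 19 genes with 37 probe sets, 14 were below intact in males and 17 in females. Beside Des, Capn3, a muscle protease, was at -0.21 (adjusted p = 0.296 in limma) and Mast2, a kinase, at -0.14 (adjusted p = 0.438 in limma).

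The enzymes that glycosylate dystroglycan, which its laminin binding needs, had 11 of 17 genes and 17 probe sets measured, with 5 below intact in males and 12 in females. B3galnt2, a glycosyltransferase, was at -0.23 in males (SE 0.05, adjusted p = 0.0841 in limma) and 0.09 in females (SE 0.05, adjusted p = 0.583 in limma), from a dim probe set. Dpm2 and Dolk, which serve the making of the mannose donor, were each at -0.09 averaged over the sexes (adjusted p = 0.778 and 0.815 in limma). Their signs differed by sex. In females they were at -0.23 and -0.21 (adjusted p = 0.394 and 0.455 in limma). In males each was at 0.04 (adjusted p = 0.945 and 0.958 in limma).

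The laminins and other matrix ligands had 13 of 16 genes and 23 probe sets measured, with 10 below intact in each sex. Lama2 encodes the laminin α2 chain that dystroglycan binds around muscle cells, and it was at -0.45 in males (SE 0.10, adjusted p = 0.0772 in limma), -0.12 in females (SE 0.10, adjusted p = 0.694 in limma) and -0.29 averaged over the sexes (SE 0.07, adjusted p = 0.0758 in limma). Its averaged difference passed in 2 of 16 cases with an array left out, and the adjusted p ran from 0.0141 to 0.164. Lamc1, the laminin γ1 chain, was at 0.22 (adjusted p = 0.332 in limma) and Col6a3, a collagen VI chain, at 0.34 (adjusted p = 0.534 in limma). The integrin and vinculin attachment, the other link to laminin, had all 11 genes and 23 probe sets measured, with 15 below intact in males and 10 in females, and Flnc, Tln1 and Parva were at 0.20, 0.14 and 0.11 averaged over the sexes (adjusted p = 0.311, 0.547 and 0.601 in limma).

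Genes whose signal ran most like Dmd 1448665 were sought over all other named genes, as a description over 16 arrays that share these 4 groups. Dbt had r 0.908, Acat1 0.889, Ssbp2 0.882, Kcnj3 0.864 and Rad9b 0.863. Of these, Acat1, a mitochondrial thiolase, fell in males by 0.28 (SE 0.05, adjusted p = 0.0352 in limma), and the other 4 were not called. The Ssbp2 probe set was dim, with a mean rank at the 19.0 percentile of the array. After removal of the group means the most alike were Cacna2d1, a calcium channel subunit, at r 0.970, Rif1 at 0.957, 1810013L24Rik at 0.952, Smarca5 at 0.946 and Pura at 0.943. None of these 5 was called in either sex. Among the members, Sgcb 1436678 had r 0.671 over all arrays and 0.05 after removal of the group means, while Sgcb 1419668 had 0.587 and 0.615.

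The measured neighbours of Dmd on chromosome X, 3 on each side and chosen after values were seen, were not called in either sex or averaged. They were Cfap47, Mageb16 and Tmem47 before the gene and Tab3, 5430427O19Rik and Samt3 after it. The male difference was -0.43 for Tmem47 (SE 0.27, adjusted p = 0.732 in limma) and -0.27 for Tab3 (SE 0.19, adjusted p = 0.769 in limma), and the other 4 lay between -0.06 and 0.08. In females the difference was 0.20 for Tmem47 (SE 0.27, adjusted p = 0.849 in limma) and 0.32 for Tab3 (SE 0.19, adjusted p = 0.576 in limma). The other 4 were dim, with a mean rank at the 15.2 to 15.9 percentile of the array, where a fall could hardly be seen.

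Some markers of other cell types also differed in level between the genotypes. In males the mean log2 signal of the macrophage markers was 4.70 to 5.27 on the intact arrays and 5.20 to 5.92 on the GPER KO arrays, with all 12 probe sets above intact (median 0.73) and 3 called, namely Mpeg1, Lyz2 and Cd68. The mean of the endothelial markers was 6.18 to 6.95 on the male intact arrays and 6.04 to 6.54 on the male GPER KO arrays, with all 20 probe sets below intact (median -0.33) and 0 called. The cardiomyocyte markers were 12.3 to 12.4 on the male arrays of both genotypes (median difference -0.05), with 16 of 21 probe sets below intact and 0 called. In females the endothelial markers had a median of -0.24, with 19 of 20 below intact, and the macrophage markers of 0.37, with 11 of 12 above, and none was called.

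Of the 10 probe sets of fibroblast markers, 8 were above intact in females (median 0.24) and 6 in males (median 0.22, with 4 below), and 0 were called. The mean of the atrial muscle markers was 6.95 to 8.45 on the male intact arrays and 8.04 to 9.07 on the male GPER KO arrays, with 4 of 5 probe sets above intact (median 1.16), while in females 4 of 5 were below (median -0.06). Of these, 1 was called in males, Nppa, which encodes atrial natriuretic peptide and rose by 1.41 (SE 0.24, adjusted p = 0.0150 in limma). In females the difference of Nppa was 1.18 (SE 0.24, adjusted p = 0.0712 in limma). No marker of smooth muscle, skeletal muscle, Schwann cells or red blood cells was called. Of the smooth muscle and pericyte markers, 8 of 13 probe sets were below intact in females (median -0.01) and 11 in males (median -0.15). Red blood cell markers had 6 of 6 below in females (median -0.47) and 4 of 6 in males (median -0.18). Skeletal muscle and Schwann cell markers had medians of -0.01 and -0.03 in females and of 0.02 each in males. The part of other cell types in the Dmd and Sgcb values was not tested, and in such bulk samples fewer cells of a type and less RNA per cell cannot be told apart.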

How the data were processed

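RNA of ventricular cardiomyocytes from 16 mice was hybridised to Affymetrix GeneAtlas MG-430 PM arrays, 1 per mouse, and samples were grouped by the genotype and gender labels. The deposited values are log2 signals per probe set, made by the authors with RMA and Partek (versions not given), so that scanner signals were not reprocessed here. RMA shrinks differences at dim probe sets, and 4 arrays per group limit the precision. Symbols came from the platform annotation, updated through Entrez identifiers to RefSeq names of GRCm38.p6 (28689 of 28898 probe sets with 1 gene matched). Another 551 probe sets have several genes and 15692 have none.

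All 45141 probe sets were fitted on 4 group means with lmFit, contrasts.fit and eBayes of limma 3.58.1 under R 4.3.3, with no filter and Benjamini-Hochberg adjustment over all probe sets at 0.05. Intervals are 95% from the moderated fit and not adjusted. Separate animals are replicates by their animal numbers. A simulated male comparison on 45141 probe sets recovered 73% of changes of 0.5 and 98% of changes of 1.0 (log2), with 9 false calls. It drew independent normal noise for each probe set from its own spread, so variation shared between probe sets was not simulated. The changed probe sets were randomly chosen, and the rates do not describe wide ones such as Dmd 1448665 and 1417307 (pooled SD 0.72 and 0.47, median 0.11). The members and lists were chosen with earlier results of these data known. Named genes were all members, in each related list the called genes or, up to 3 genes, those with the smallest averaged p, and the 5 genes most like Dmd 1448665 by 2 measures. Markers were named where a result turned on them.

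Alternatives were 1 probe set per gene (highest mean), averaging the probe sets of each gene, a filter keeping probe sets above the 40 percentile on at least 4 arrays, only probe sets with 1 gene, a second quantile normalization, median centring, array weights, a trended robust prior, the arrays of each sex alone, and each array left out in turn.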

Additional observations from a re-analysis of the deposited data

Results flagged for a closer look

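Of the 80 sets of 4 arrays, 6 held an array that lay far from the other 3 by Dixon's test at its 95% limit. Chance flags about 1 in 20 such groups. Utrn 1427569 was 3.31 in female intact 421, with the other 3 at 3.68 to 3.76. Dag1 1426778 was 9.74 in female GPER KO 419, with the others at 10.09 to 10.15. Sgcb 1436678 was 7.37 in male intact 433, with the others at 7.60 to 7.62, and this array is the intact one nearest to the GPER KO group. Without it the male difference was -0.68 (adjusted p = 0.0114 in limma, over a range of 0.00275 to 0.0387 in the alternatives). Dtna 1426066 was 5.40 in female intact 418, with the others at 4.98 to 5.02. Dtna 1429768 was 3.93 in male intact 430, with the highest of the others at 3.57. Sspn 1417645 was 8.54 in male GPER KO 451, with the others at 8.34 to 8.35. Neither of the called Dmd probe sets had such an array in any group. The test looks for 1 array far from the other 3. Male intact arrays were split for Dmd 1448665, at 7.38 and 7.18 against 5.80 and 5.88, which it cannot flag.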

How the results depend on the processing

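Among the genotype and sex comparisons, the 20 member probe sets had 0 calls in females and 0 in the difference between the sexes under all alternatives run. The male count was 3. It was 1 with 1 probe set per gene (Dmd) and with probe sets averaged by gene (Dmd). There 8 member values were tested in place of 20, and Sgcb was not called. The male count was also 1 with a trended robust prior (Sgcb 1436678) and with the male arrays alone (Sgcb 1436678). It ran from 1 to 3 with an array left out. In males Dmd 1448665 and 1417307 had adjusted p of 0.110 and 0.0908 with the trended robust prior, and 0.103 and 0.105 with the male arrays alone, out of a range of 0.0239 to 0.160 in limma over both. The count averaged over the sexes was 3, and 1 with 1 probe set per gene (Dmd), with the mean of probe sets (Dmd) and with the trended robust prior (Sgcb 1436678), and 0 to 3 with an array left out. The count of male against female intact mice was 0, and 1 after a second quantile normalization and with the trended robust prior (Dtna 1456069 both times), and 0 to 1 with an array left out (1 without female intact 418). In the averaged comparison Dmd 1448665 and 1417307 each missed the threshold in 7 of 16 cases with an array left out (adjusted p up to 0.0683 and 0.0789). The cause of these shifts was not tested.

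Signs turned in comparisons that were not called. With array weights, Sgcd 1450805 became -0.0085 and Sspn 1417645 became -0.0028 in females and Dtna 1425292 became 0.0041 in males. With an array left out, female values ran from -0.0056 to 0.13 for Dmd 1430320, -0.088 to 0.028 for Dag1 1423872, -0.087 to 0.049 for Dag1 1426778, -0.11 to 0.025 for Dag1 1426779, -0.087 to 0.016 for Sgcb 1419667, -0.11 to 0.030 for Sgcb 1436678, -0.057 to 0.13 for Sgcd 1450805, -0.060 to 0.00069 for Dtna 1427588 and -0.036 to 0.079 for Sspn 1417645. Male values ran from -0.011 to 0.061 for Dmd 1430320, -0.028 to 0.034 for Dag1 1426779, -0.0048 to 0.072 for Sgcb 1419667, -0.035 to 0.21 for Sgcd 1450805, -0.085 to 0.018 for Dtna 1425292, -0.026 to 0.083 for Dtna 1426066, -0.074 to 0.033 for Dtna 1427588, -0.050 to 0.0089 for Sspn 1417644 and -0.085 to 0.0056 for Sspn 1417645.

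Over all probe sets the calls were 55 in females (19 with the female arrays alone, 23 to 218 with an array left out, the highest without female intact 425) and 131 in males (225 with array weights, 70 with the male arrays alone, 65 to 165 with an array left out). Averaged over the sexes they were 369 (233 with 1 probe set per gene or their mean, 248 to 428 with an array left out). For male against female intact mice they were 111 (236 after a second quantile normalization, 43 with the mean of probe sets, 23 to 520 with an array left out). No paired analysis was possible because every animal number occurs once. The arrays give no detection calls here, so that dim probe sets such as Dmd 1430320 limit what can be seen.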
